A study of Mus musculus with 11 samples.

Results

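The forkhead transcription factors were described in the mesenchyme of the mouse small intestine. Members were chosen by symbol alone: Fox, a letter from A to S and a number, leaving out antisense and hyphenated entries. The rule found 44 of 24943 named genes in the bulk count table, 44 of 27934 symbols in the sorted single-cell library and 44 of 31017 symbols in each whole-mesenchyme library. The study separated mesenchymal populations that shape the intestinal bone morphogenetic protein gradient. The bulk data comprised 8 libraries, 2 in each of 4 groups of cells sorted from stripped and digested small intestine. Telocytes were the GFPHi cells of the transgenic PDGFRAH2BEGFP mouse, whose nuclear green fluorescent protein reports the Pdgfra gene. PDGFRAlo stromal cells were the GFPLo cells of the same line. The 2 endothelial sorts came from C57BL/6 mice: CD31+LYVE1- cells and CD31+LYVE1+ cells, the second labelled as lymphatic. One droplet single-cell library held EGFP-positive cells of the reporter line, and 2 held whole mesenchyme, whose strain the labels do not give. No treatment or age is stated for any group, and nothing states that same-group libraries came from different mice. The p-values below therefore measure the spread between libraries, which may be technical.

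Forkhead proteins bind DNA through a conserved winged-helix domain and are grouped into lettered classes. Foxf1 and Foxf2 act in gut mesenchyme downstream of hedgehog signals from the epithelium, and Foxl1 marks the subepithelial telocytes that supply Wnt ligands to crypts. Foxc1 and Foxc2 work in vessels, with Foxc2 needed for lymphatic valves, and Foxd3 keeps neural crest cells and their glial derivatives. FOXO proteins act downstream of insulin and PI3K signals, which move them out of the nucleus. Foxp1, Foxp2, Foxp3 and Foxp4 are repressors that pair with one another.

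Several of these genes are neighbours in the mouse genome (GRCm38, GENCODE M21 annotation). Foxf1 lies at chr8:121084386-121088144, Foxc2 at chr8:121116171-121118895 and Foxl1 at chr8:121127940-121130644, all on the plus strand. Foxc2 starts 28.0 kb beyond the end of Foxf1, and Foxl1 starts 9.04 kb beyond the end of Foxc2. On chromosome 13, Foxq1 (chr13:31556134-31560976), Foxf2 (chr13:31625816-31631403) and Foxc1 (chr13:31806633-31812476) follow one another on the plus strand with gaps of 64.8 kb and 175 kb. Foxp2 spans chr6:14901349-15441977, Foxd3 chr4:99656299-99658622 and Foxs1 chr2:152931898-152933208, the last on the minus strand.

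Promoter windows, the 250 bases before an annotated start in RefSeq (GRCm38.p6), were matched for 28 of the 44 genes, in 33 windows. Foxf1, Foxl1, Foxc2, Foxp2, Foxq1 and Foxs1 were among the genes without a window. The windows of the neighbours Foxf2 and Foxc1 are shown because the genes differed in where they were expressed. The window of Foxd3 is shown because its transcripts were mostly in one cell type. All are on the plus strand. Capitals mark the GC box GGGCGG, searched on both strands.
Foxf2, chr13:31625566-31625815: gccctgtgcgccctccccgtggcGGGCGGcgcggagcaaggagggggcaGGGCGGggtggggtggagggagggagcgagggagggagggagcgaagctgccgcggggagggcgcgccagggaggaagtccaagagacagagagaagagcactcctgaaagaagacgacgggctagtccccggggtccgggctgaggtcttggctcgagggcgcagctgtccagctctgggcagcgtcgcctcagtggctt
Foxc1, chr13:31806396-31806645: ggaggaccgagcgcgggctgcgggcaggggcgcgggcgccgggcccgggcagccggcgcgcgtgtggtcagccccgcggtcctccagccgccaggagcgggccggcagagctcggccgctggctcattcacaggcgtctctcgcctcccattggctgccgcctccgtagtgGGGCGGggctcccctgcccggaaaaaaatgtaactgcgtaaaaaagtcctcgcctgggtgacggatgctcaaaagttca
Foxd3, chr4:99656049-99656298: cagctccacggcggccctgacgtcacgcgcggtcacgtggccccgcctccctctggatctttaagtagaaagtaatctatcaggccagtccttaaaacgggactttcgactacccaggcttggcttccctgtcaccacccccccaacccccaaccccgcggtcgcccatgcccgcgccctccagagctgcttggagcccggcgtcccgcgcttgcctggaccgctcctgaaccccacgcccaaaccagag
The window of Foxf2 held 2 GC boxes, that of Foxc1 held 1 and that of Foxd3 held 0. The GC box was in 23 of the 33 forkhead windows, against 32.7% of all mouse windows of that length. The median GC content was 62.0% in the forkhead windows and 52.4% in all windows. The forkhead core GTAAACA (reverse complement TGTTTAC) was in 1 forkhead window, that of Foxa1, and in 3.17% of all windows. The GLI motif TGGGTGGTC (reverse complement GACCACCCA) was in 0 forkhead windows and in 0.225% of all windows. With so rare a motif, 0 in 33 windows cannot set the forkhead genes apart, and Foxf1 and Foxl1 were not searched. None of the windows printed above held the forkhead core or the GLI motif.

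Bulk libraries held 8549348 to 55382442 counts. Levels below are CPM, counts normalised to library size, after composition scaling with the trimmed mean of M values (TMM). The single-cell libraries kept 3844 sorted cells, and 6128 and 5927 whole-mesenchyme cells. Each cell was placed in a gate by the marker list that led in it, and the lists held no forkhead gene. In the whole-mesenchyme libraries, 15 gates held 20 or more cells in both: 111 and 109 telocyte-gated cells, 75 and 63 Cd81 fibroblasts, 1043 and 972 lamina propria fibroblasts, 292 and 234 smooth muscle cells and 33 and 48 pericytes. There were 151 and 140 blood endothelial cells, 85 and 79 lymphatic endothelial cells and 37 and 27 glia, and the other 7 gates were immune. Single-cell levels are CPM of the unique molecular identifiers (UMIs) summed over a gate. Between the whole-mesenchyme libraries, 7.23% to 11.7% of genes in a gate differed beyond a chi-square limit of 3.84, and they shared 7 cell barcodes. The sorted and the first whole-mesenchyme library shared 1.

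The bulk sorts carried markers of other cells. The summed level of 8 blood endothelial markers was 73.6 and 49.3 CPM in telocytes, 2970 and 1061 CPM in PDGFRAlo cells, 27698 and 18550 CPM in CD31+LYVE1- cells and 3016 and 1851 CPM in CD31+LYVE1+ cells. The 7 plasma cell markers reached 172036 and 67036 CPM in the CD31+LYVE1+ libraries, against 4829 and 4865 CPM in the CD31+LYVE1- libraries. The 8 macrophage markers were at 7427 and 9513 CPM in the CD31+LYVE1+ libraries, against 2944 and 2060 CPM in the CD31+LYVE1- libraries. The part of these cells in the results below was not tested unless a value is given, and in sorted bulk RNA fewer cells of a type cannot be told from less RNA per cell. Mouse strain changes together with the PDGFRA and endothelial groups, so that their effects cannot be told apart in bulk.

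Of the 44 forkhead genes, 34 had at least 1 bulk count and 10 had none. The filter on low counts left 22 for testing among 14893 genes, and the other 22 reached at most 1.43 CPM, for Foxa1. In telocytes over PDGFRAlo cells, 3 forkhead genes were higher (2.77% of all tested genes were) and 3 were lower (12.1% of all genes) by edgeR's quasi-likelihood test at an adjusted p under 0.05. The higher genes were Foxl1, Foxf1 and Foxf2, and the lower ones Foxp2, Foxo1 and Foxc1. The median log2 fold change was 0.02 over the 22 forkhead genes and -0.03 over all genes, and 7 forkhead genes had an unadjusted p under 0.05. In the PDGFRA populations over endothelium, 9 forkhead genes were higher and 3 lower, where 28.8% and 31.7% of all genes were called in those directions and 60.5% in either. In CD31+LYVE1- over CD31+LYVE1+ cells, 2 were higher and 2 lower, where 14.7% and 8.32% of all genes were. The summed forkhead level was 1678 and 1520 CPM in telocytes, 1090 and 1029 CPM in PDGFRAlo cells, 612 and 780 CPM in CD31+LYVE1- cells and 448 and 526 CPM in CD31+LYVE1+ cells. These calls depended on single libraries: of the 6, 1 was made without telocyte replicate 1 or without telocyte replicate 2, 3 without PDGFRAlo replicate 1, 2 without PDGFRAlo replicate 2 and 3 without either CD31+LYVE1+ replicate, and 5 without either CD31+LYVE1- replicate. All 6 kept their direction in the 13 alternative fits.

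**Figure D1:**
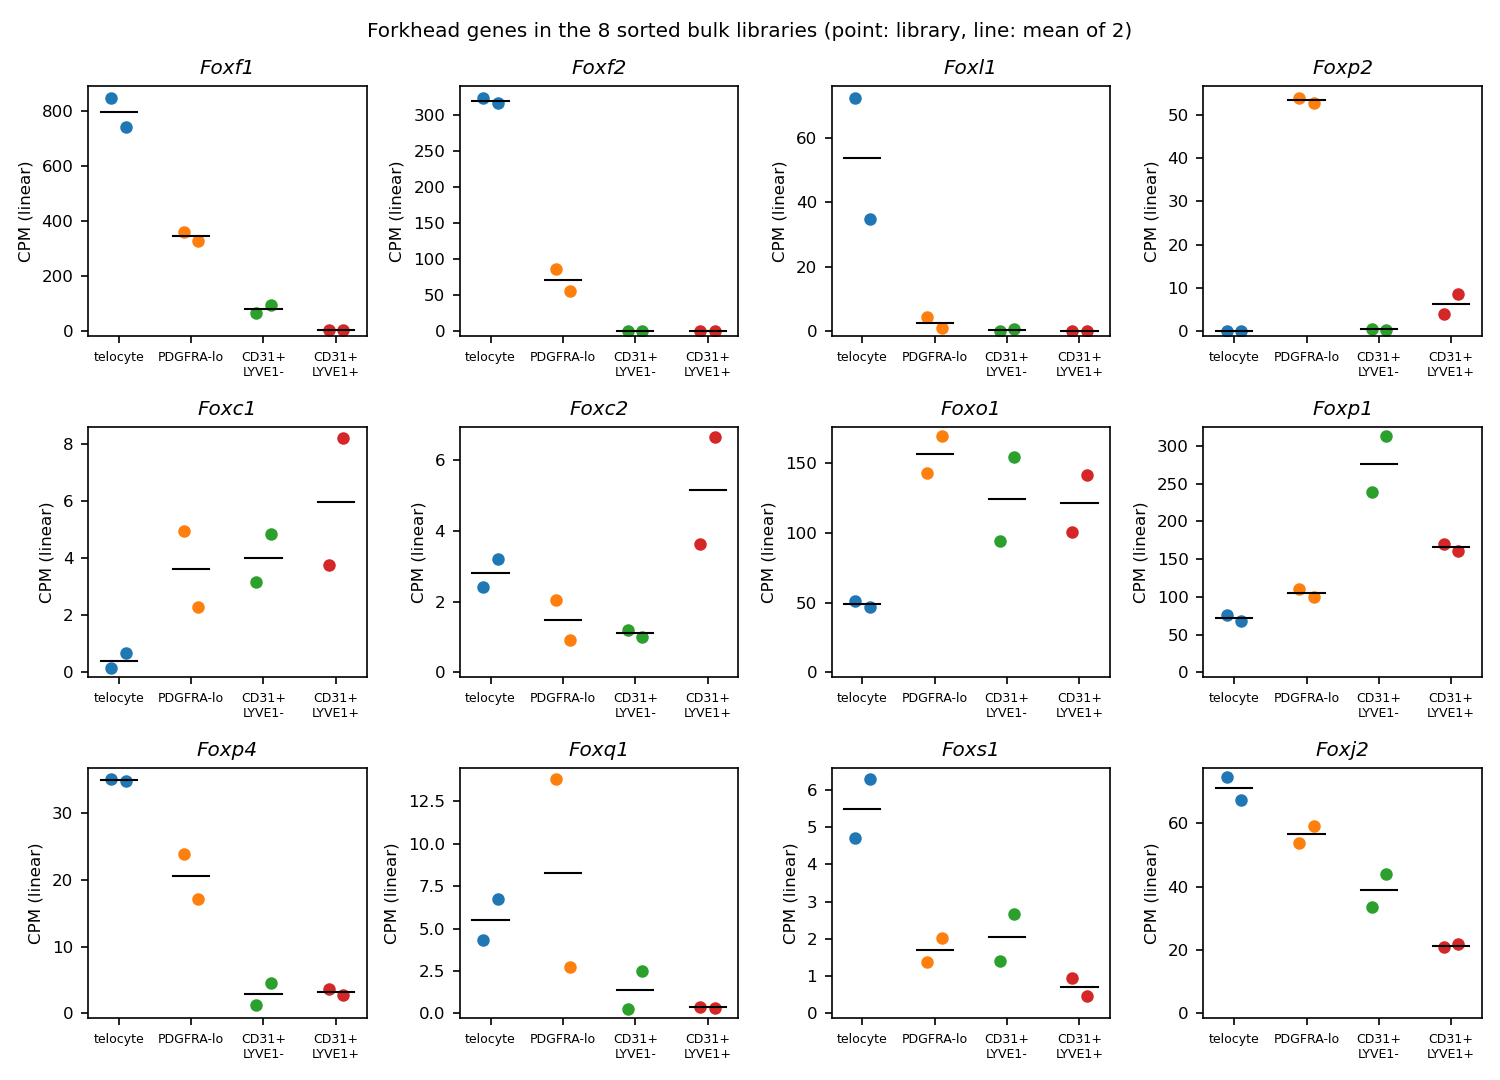
Level of 12 forkhead genes in CPM on linear axes in the 8 bulk libraries, with telocytes, PDGFRAlo, CD31+LYVE1- and CD31+LYVE1+ cells from left to right. Points are libraries and lines the mean of 2: Foxf1, Foxf2 and Foxl1 were highest in telocytes, Foxp2 in PDGFRAlo cells, and Foxp1 in CD31+LYVE1- cells.

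Foxl1, the telocyte forkhead gene, was at 72.5 and 35.0 CPM in telocytes, 4.42 and 1.06 CPM in PDGFRAlo cells, 0 and 0.670 CPM in CD31+LYVE1- cells and 0.135 and 0 CPM in CD31+LYVE1+ cells. Both telocyte libraries lay above every other library, and the telocyte libraries differed from each other by more than the PDGFRAlo level. Telocytes over PDGFRAlo cells had a log2 fold change of 4.31 (SE 1.13, edgeR adjusted p = 0.0313). Without telocyte replicate 1 the edgeR adjusted p was 0.156, without telocyte replicate 2 it was 0.0554, without PDGFRAlo replicate 2 it was 0.148, and DESeq2 gave 0.155. Without CD31+LYVE1+ replicate 1 or 2 it was 0.0547 or 0.0561, while the log2 fold change stayed between 3.61 and 5.67 in every fit.

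The order of Foxl1 over the gated cell types held a second high type. It was at 23.7 and 46.7 CPM in telocyte-gated cells of the whole-mesenchyme libraries, from 19 and 40 UMIs. Smooth muscle cells had 17.5 and 23.1 CPM, from 35 and 37 UMIs. These neighbours did not pass the test (log2 difference 0.72, SE 0.37, edgeR adjusted p = 0.156). Lamina propria fibroblasts had 2.79 and 3.86 CPM, and droplets of 50 UMIs or fewer, which hold free RNA, had 0.748 and 3.46 CPM. Telocyte-gated cells lay above lamina propria fibroblasts by 3.20 on the log2 scale (SE 0.39, edgeR adjusted p = 1.22e-07). Lamina propria fibroblasts lay below smooth muscle cells by 2.49 (log2 difference -2.49, SE 0.37, edgeR adjusted p = 1.79e-06). Cd81 fibroblasts, pericytes, blood endothelium and glia had 0 UMIs. Against a floor of 3 UMIs over both libraries, telocyte-gated cells were at least 13.4-fold higher than Cd81 fibroblasts and at least 17.6-fold higher than blood endothelium.

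The 8 markers of the telocyte list had a summed level of 406 and 366 CPM in smooth muscle cells, 376 and 369 CPM in lamina propria fibroblasts and 5158 and 5280 CPM in telocyte-gated cells. The smooth muscle list summed to 20334 and 21026 CPM in smooth muscle cells and to 2309 and 2079 CPM in telocyte-gated cells. In the 25 and 32 smooth muscle cells with a Foxl1 UMI, the level of Myh11, the smooth muscle myosin heavy chain, was 5779 and 4650 CPM, against 4627 and 4975 CPM in the smooth muscle cells without one. Of the telocyte list, Pdgfra had 1 and 0 UMIs in the cells with a Foxl1 UMI, while Bmp5, a bone morphogenetic protein, was at 221 and 186 CPM in them, against 134 and 120 CPM in those without one. Hhip, a hedgehog-binding protein, was at 3686 and 3954 CPM in the cells with a Foxl1 UMI, against 2061 and 2162 CPM in those without one, with median depths of 8006 and 7278 UMIs against 6218 and 6306 UMIs.

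Foxf1 had the highest forkhead level in both PDGFRA populations. It was at 847 and 741 CPM in telocytes, 360 and 329 CPM in PDGFRAlo cells, 66.0 and 96.5 CPM in CD31+LYVE1- cells and 5.94 and 6.38 CPM in CD31+LYVE1+ cells, with no overlap between any of the groups. The log2 fold change was 1.20 in telocytes over PDGFRAlo cells (SE 0.34, edgeR adjusted p = 0.0428). That call was lost without any 1 of the PDGFRA libraries (edgeR adjusted p of 0.146 to 0.256) or of the CD31+LYVE1+ libraries (0.0524 and 0.0543). The log2 fold change was 4.54 in the PDGFRA populations over endothelium (SE 0.28) and 3.72 in CD31+LYVE1- over CD31+LYVE1+ cells (SE 0.38, edgeR adjusted p = 0.00126). Per kilobase of annotated exon, Foxf1 ranked first of the 44 in telocytes at 329 CPM per kb, in PDGFRAlo cells at 143 CPM per kb and in CD31+LYVE1- cells at 33.7 CPM per kb. In CD31+LYVE1+ cells it ranked at place 5 with 2.55 CPM per kb, and Foxo1 came first. Mural markers also differed between the endothelial sorts. Of 8 pericyte markers 6 were called higher and 1 lower in CD31+LYVE1- over CD31+LYVE1+ cells. Of 8 smooth muscle markers 4 were higher and 0 lower, where 14.7% and 8.32% of all genes were called in those directions. The pericyte marker Rgs5 was at 65.2 and 175 CPM in CD31+LYVE1- cells, against 16.5 and 7.06 CPM in CD31+LYVE1+ cells. Kcnj8, of the same list, went the other way, at 4.14 and 6.87 CPM against 147 and 226 CPM. The summed levels of CD31+LYVE1- and CD31+LYVE1+ cells were 129 and 306 CPM against 182 and 245 CPM for the pericyte list, and 185 and 324 CPM against 123 and 194 CPM for the smooth muscle list. Of 8 lamina propria fibroblast markers, 2 were called higher, and the list summed to 817 and 1163 CPM against 556 and 343 CPM. The part of these cells in the Foxf1 difference was not tested.

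In the whole-mesenchyme libraries Foxf1 reached beyond PDGFRA cells. Pericytes had 259 and 306 CPM, telocyte-gated cells 212 and 238 CPM and smooth muscle cells 211 and 191 CPM. None of these neighbours passed the test: telocyte-gated cells over pericytes gave a log2 difference of -0.30 (SE 0.18, edgeR adjusted p = 0.283) and over smooth muscle cells 0.10 (SE 0.11, edgeR adjusted p = 0.570). Lamina propria fibroblasts were lower at 108 and 108 CPM, blood endothelium had 70.8 and 52.2 CPM and Cd81 fibroblasts had 65.9 and 47.1 CPM. Cd81 fibroblasts over blood endothelium did not pass the test (log2 difference 0.02, SE 0.26, edgeR adjusted p = 0.986). Lymphatic endothelium had 0 UMIs in both libraries, so that blood endothelium was at least 18.9-fold higher. Low-UMI droplets held 37.0 and 28.1 CPM of Foxf1, above the lymphatic level of 0 in the same libraries.

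Foxf2, the second FoxF gene, was low in both endothelial sorts, although it had UMIs in 12 gates, against 11 for Foxf1. In bulk Foxf2 was at 324 and 316 CPM in telocytes, 86.9 and 55.6 CPM in PDGFRAlo cells, 0.520 and 1.26 CPM in CD31+LYVE1- cells and 0.135 and 0.806 CPM in CD31+LYVE1+ cells. Every PDGFRA library lay far above every endothelial one. The log2 fold change was 2.17 in telocytes over PDGFRAlo cells (SE 0.50, edgeR adjusted p = 0.0186) and 7.77 in the PDGFRA populations over endothelium (SE 0.48). The first call was lost without telocyte replicate 1 or 2 (edgeR adjusted p = 0.0662 or 0.0702) or PDGFRAlo replicate 1 or 2 (0.0505 or 0.131). In the whole-mesenchyme libraries smooth muscle cells led with 124 and 159 CPM, ahead of telocyte-gated cells with 103 and 105 CPM. Telocyte-gated cells lay 0.50 below smooth muscle on the log2 scale (log2 difference -0.50, SE 0.15, edgeR adjusted p = 0.00863). Lamina propria fibroblasts had 53.8 and 56.0 CPM, pericytes 6.64 and 21.3 CPM and Cd81 fibroblasts 3.22 and 3.92 CPM, while low-UMI droplets held 22.1 and 14.7 CPM. The pericytes that led in Foxf1 were therefore low in Foxf2, at 1 and 5 UMIs.

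Foxp2, known for its role in brain circuits and as a repressor, took the opposite place. Telocytes had 0 counts in both bulk libraries, PDGFRAlo cells had 53.9 and 52.7 CPM, CD31+LYVE1- cells had 0.614 and 0.293 CPM and CD31+LYVE1+ cells had 4.05 and 8.60 CPM. Against a floor of 3 counts over the group, telocytes were at least 542-fold lower than PDGFRAlo cells, and the edgeR adjusted p was 0.000283. CD31+LYVE1- cells were lower than CD31+LYVE1+ cells with a log2 fold change of -3.75 (SE 0.55, edgeR adjusted p = 0.00355). Both calls of Foxp2 were made in all 13 alternative fits of each comparison.

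Among single cells, Foxp2 was highest in Cd81 fibroblasts, with lower levels in lymphatic endothelium, lamina propria fibroblasts and smooth muscle. Cd81 fibroblasts had 154 and 112 CPM, lymphatic endothelium 46.6 and 43.5 CPM, lamina propria fibroblasts 36.1 and 39.3 CPM and smooth muscle cells 22.6 and 23.1 CPM. Telocyte-gated cells had 0 and 2 UMIs, at or below 2.34 CPM, and blood endothelium had 0 UMIs. Cd81 fibroblasts exceeded lymphatic endothelium by 1.91 on the log2 scale (SE 0.29, edgeR adjusted p = 1.4e-06). Lamina propria fibroblasts over lymphatic endothelium did not pass the test (log2 difference -0.03, SE 0.29, edgeR adjusted p = 0.945). Lymphatic endothelium was at least 22.2-fold above blood endothelium, and low-UMI droplets held 7.86 and 7.78 CPM. With both fibroblast gates summed, telocyte-gated cells had 2 UMIs against 723, a ratio of 0.0272 with an exact counting interval of 0.00328 to 0.0985.

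**Figure D2:**
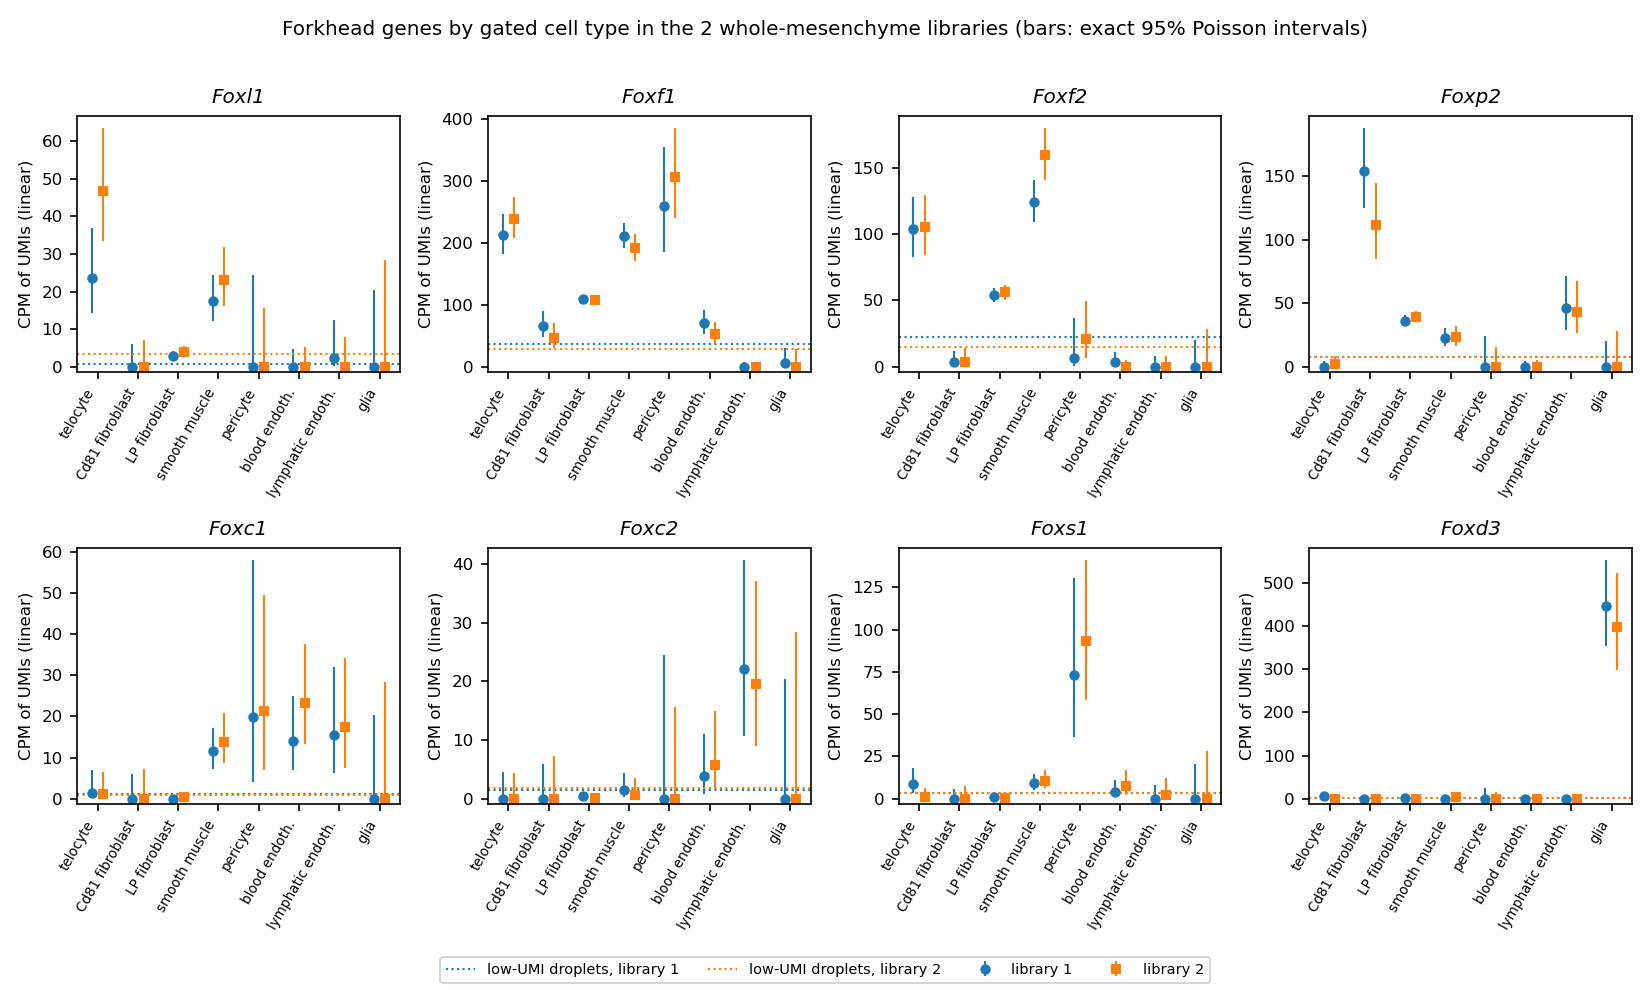
Level of 8 forkhead genes in CPM of UMIs on linear axes in 8 gated cell types, with points for the 2 whole-mesenchyme libraries, bars for exact 95% Poisson intervals and dotted lines for the level in low-UMI droplets. Foxl1 was high in telocyte-gated and smooth muscle cells, Foxp2 in Cd81 fibroblasts, Foxc2 in lymphatic endothelium, Foxs1 in pericytes and Foxd3 in glia.

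Foxc1 and Foxc2 were low in all 4 bulk groups. Foxc1 was at 0.143 and 0.666 CPM in telocytes, 4.95 and 2.31 CPM in PDGFRAlo cells, 3.17 and 4.86 CPM in CD31+LYVE1- cells and 3.78 and 8.20 CPM in CD31+LYVE1+ cells. Telocytes, with 2 and 11 counts, lay below all other groups. The log2 fold change was -3.11 in telocytes over PDGFRAlo cells (SE 0.85, edgeR adjusted p = 0.0380) and -2.00 in the PDGFRA populations over endothelium (SE 0.56, edgeR adjusted p = 0.0128). The first was called in 5 of 13 alternative fits and lost without any 1 library other than PDGFRAlo replicate 2 (edgeR adjusted p of 0.0501 to 0.217). The second call was lost without telocyte replicate 1 (edgeR adjusted p = 0.0532) or CD31+LYVE1+ replicate 2 (edgeR adjusted p = 0.0571). All 8 blood endothelial and all 8 macrophage markers were also lower in telocytes than in PDGFRAlo cells, as were 7 of 8 B cell markers. Of 8 pericyte markers, 3 were higher and 1 lower. The part of these cells in the Foxc1 difference was not tested. In the single-cell data lamina propria fibroblasts held 0 and 2 UMIs of Foxc1 and Cd81 fibroblasts held none, and in the sorted library they held 2 and 0 UMIs. Telocyte-gated cells of the whole-mesenchyme libraries held 1 and 1 UMIs (1.25 and 1.17 CPM), against 0 and 0.258 CPM in pooled fibroblasts. That difference did not pass the test and did not repeat the bulk direction (log2 fold change 2.58, SE 1.53, edgeR adjusted p = 0.241).

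Among the gated cells Foxc1 was highest in pericytes, endothelium and smooth muscle. It was at 19.9 and 21.3 CPM in pericytes (3 and 5 UMIs), 13.9 and 23.2 CPM in blood endothelium, 15.5 and 17.4 CPM in lymphatic endothelium and 11.5 and 13.7 CPM in smooth muscle cells. No pair of neighbours in this order passed the test, with edgeR adjusted p of 1 for pericytes over blood endothelium, 0.729 for blood over lymphatic endothelium and 0.738 for smooth muscle over lymphatic endothelium. Low-UMI droplets held 1.12 and 0.864 CPM of Foxc1. Foxc1 of the pooled telocyte and fibroblast gates over pooled endothelium had a log2 fold change of -5.91 (SE 0.59), from 1 and 3 against 18 and 24 UMIs.

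Foxc2 was highest in lymphatic endothelium. In bulk it was at 2.42 and 3.21 CPM in telocytes, 2.05 and 0.924 CPM in PDGFRAlo cells, 1.21 and 1.005 CPM in CD31+LYVE1- cells and 3.64 and 6.65 CPM in CD31+LYVE1+ cells. CD31+LYVE1- cells were lower than CD31+LYVE1+ cells (log2 fold change -2.22, SE 0.69, edgeR adjusted p = 0.0460). That call was lost when telocyte replicate 1 or 2 (0.0843 or 0.0874), CD31+LYVE1- replicate 1 or 2 (0.0991 or 0.134) or CD31+LYVE1+ replicate 1 or 2 (edgeR adjusted p = 0.0694 or 0.240) was left out. Lymphatic endothelium of the whole-mesenchyme libraries had 22.2 and 19.6 CPM from 10 and 9 UMIs, and blood endothelium had 3.79 and 5.80 CPM. The log2 difference of blood over lymphatic endothelium was -1.93 (SE 0.77, edgeR adjusted p = 0.0619). NK cells had 4.51 and 7.29 CPM, ILC 4.06 and 2.56 CPM, and telocyte-gated cells, Cd81 fibroblasts, pericytes and glia had 0 UMIs. Foxf1 and Foxl1, on either side of Foxc2 in the genome, were high in telocyte-gated cells and had 0 and 1 UMIs in lymphatic endothelium.

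Of the FoxD genes, Foxd3 was found mostly in glia. The 37 and 27 glial cells had 447 and 400 CPM from 81 and 52 UMIs, which was 88.7% of all Foxd3 UMIs in the gates. Telocyte-gated cells had 6.23 and 0 CPM and smooth muscle cells 0 and 4.36 CPM. Telocyte-gated cells lay below glia by 7.05 on the log2 scale (log2 difference -7.05, SE 0.60, edgeR adjusted p = 8.7e-11). Foxd2 had 73 UMIs spread over 11 gates and was highest in glia at 5.52 and 30.7 CPM, from 1 and 4 UMIs. Foxd1 had 7 UMIs and Foxd4 had 0. In bulk all 4 genes were low. Foxd3 was at 0.0713 and 0 CPM in telocytes, 1.19 and 0.0462 CPM in PDGFRAlo cells, 0.614 and 0.419 CPM in CD31+LYVE1- cells and 0 and 0.336 CPM in CD31+LYVE1+ cells. Foxd2 was at 0.713 and 1.69 CPM in telocytes, 1.78 and 0.185 CPM in PDGFRAlo cells, 1.28 and 1.55 CPM in CD31+LYVE1- cells and 2.02 and 0.202 CPM in CD31+LYVE1+ cells. Foxd1 was at 0.285 and 0.787 CPM in telocytes, 0.0660 and 0.277 CPM in PDGFRAlo cells, 0 and 0.0419 CPM in CD31+LYVE1- cells and 0 CPM in CD31+LYVE1+ cells, and Foxd4 had 0 counts.

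Among the single-cell comparisons, 26 forkhead genes had 10 or more UMIs, 6 had 1 to 9 and 12 had none, and 21 were tested among 11671 genes. In telocyte-gated cells over the mean of both fibroblast gates, 5 were higher (12% of all genes were) and 4 lower (13.7% of all genes). Foxf1, Foxf2 and Foxl1 were among the higher genes, as in bulk, and Foxp2 and Foxo1 among the lower ones. With the UMIs of both fibroblast gates summed, which avoids averaging a gate at 0 UMIs, the log2 fold changes were 0.86 for Foxf1 (SE 0.11), 0.77 for Foxf2 (SE 0.15) and 3.23 for Foxl1 (SE 0.36). In that fit 5 forkhead genes were higher (9.9% of all genes) and 5 lower (16.6%), and Foxc1, lower in bulk telocytes, was not called. Foxn3, lower in both fits, was at 152 and 118 CPM in telocyte-gated cells, against 207 and 210 CPM in pooled fibroblasts (-0.89, SE 0.10). Foxo4 was called lower only with gates pooled, at 8.73 and 4.67 CPM, against 13.8 and 15.6 CPM (-1.39, SE 0.44, edgeR adjusted p = 0.0135). DESeq2 on the averaged gates gave an adjusted p of 0.711 for Foxl1. In Cd81 over lamina propria fibroblasts, 1 was higher (5.71% of all genes) and 3 lower (4.81% of all genes). Foxp2 was higher by 1.94 (SE 0.20), and Foxf1 (-0.81, SE 0.19), Foxf2 (-3.82, SE 0.48) and Foxn3 (-0.51, SE 0.11) were lower on the log2 scale.

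Foxs1, known from pericytes, and Foxq1 were also higher in telocyte-gated cells than in fibroblasts. Foxs1 was at 8.73 and 1.17 CPM in telocyte-gated cells, from 7 and 1 UMIs, against 0.587 and 0.129 CPM in the pooled fibroblasts. The pooled log2 fold change was 3.28 (SE 0.94, edgeR adjusted p = 0.00697). In bulk Foxs1 was at 4.70 and 6.29 CPM in telocytes, 1.39 and 2.03 CPM in PDGFRAlo cells, 1.42 and 2.68 CPM in CD31+LYVE1- cells and 0.945 and 0.470 CPM in CD31+LYVE1+ cells. Its log2 fold change of 1.68 in telocytes over PDGFRAlo cells did not pass the test (SE 0.68, edgeR adjusted p = 0.150). Foxs1 was highest in pericytes at 73.1 and 93.5 CPM, followed by ILC at 15.97 and 17.18 CPM and smooth muscle cells at 9.02 and 10.6 CPM. Pericytes exceeded ILC by 1.80 on the log2 scale (SE 0.43, edgeR adjusted p = 0.000828).

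Foxq1 was highest in smooth muscle cells at 29.6 and 24.9 CPM. Telocyte-gated cells had 8.73 and 9.35 CPM, against 2.58 and 2.06 CPM in the pooled fibroblasts (log2 fold change 1.69, SE 0.56, edgeR adjusted p = 0.0223). In bulk it was at 4.35 and 6.72 CPM in telocytes, 13.8 and 2.73 CPM in PDGFRAlo cells, 0.284 and 2.51 CPM in CD31+LYVE1- cells and 0.405 and 0.336 CPM in CD31+LYVE1+ cells. The PDGFRAlo libraries spanned both telocyte values. Foxq1 shares 3200 of its 4843 annotated exon bases with a gene on the opposite strand, A530084C06Rik. The bulk kit was not stated to keep strand, so reads of the 2 genes could not be told apart.

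In mural cells, here pericytes and smooth muscle, over fibroblasts, 7 forkhead genes were higher (13.1% of all genes were) and 4 lower (16.6% of all genes, and 29.7% in either direction). Foxs1, Foxc1, Foxq1, Foxf1, Foxf2, Foxk1 and Foxp1 were higher, and Foxp2, Foxo1, Foxn3 and Foxo3 were lower. With gates pooled, the log2 fold change was 5.21 for Foxs1 (SE 0.55), 3.26 for Foxq1 (SE 0.36), 2.39 for Foxl1 (SE 0.37), 1.17 for Foxf2 (SE 0.11) and 0.86 for Foxf1 (SE 0.08). Foxc1 had 53 UMIs in mural cells against 2 in fibroblasts, a ratio of 108 with an exact counting interval of 28.5 to 917. Foxp2 was lower (log2 fold change -1.26, SE 0.20), with 45 and 37 UMIs in mural cells, all in smooth muscle, against 381 and 342 UMIs in fibroblasts. Foxl1 was called only with gates pooled, and Foxk1 was not called with gates pooled, with 63 and 53 UMIs in mural cells and 174 and 140 UMIs in fibroblasts (log2 fold change 0.44, edgeR adjusted p = 0.0653). Foxn3 was at 142 and 151 CPM in mural cells, against 207 and 210 CPM in fibroblasts (-0.67, SE 0.07). In pooled gates 20.8% of all genes were called higher and 23% lower.

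Foxo1, the main FOXO gene of these cells by bulk level, was lower in telocytes than in PDGFRAlo cells or gated fibroblasts. It was at 51.2 and 46.8 CPM in telocytes, 143 and 170 CPM in PDGFRAlo cells, 94.6 and 155 CPM in CD31+LYVE1- cells and 101 and 142 CPM in CD31+LYVE1+ cells. Both telocyte libraries lay below all 6 others. Over PDGFRAlo cells this was a log2 fold change of -1.68 (SE 0.36, edgeR adjusted p = 0.0126), a call lost without telocyte replicate 1 or 2 (0.0928 or 0.138) or PDGFRAlo replicate 2 (edgeR adjusted p = 0.0637). Among single cells it was at 24.9 and 25.7 CPM in telocyte-gated cells and at 75.0 and 71.3 CPM in pooled fibroblasts (log2 fold change -1.78, SE 0.21). Glia had the highest level at 292 and 246 CPM, followed by T cells, and low-UMI droplets held 102 and 94.6 CPM. Foxo1 shares 674 exon bases with an antisense gene, Gm20402. Foxo3 was also lower in telocyte-gated cells, at 48.6 and 51.4 CPM, than in pooled fibroblasts, at 76.6 and 73.8 CPM (log2 fold change -0.84, SE 0.16). In telocyte-gated cells Foxo3 thus lay above Foxo1, unlike in bulk. The bulk level of Foxo3 was 2.92 and 1.33 CPM in telocytes and 5.48 and 5.31 CPM in PDGFRAlo cells, and it was not called.

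Some broadly expressed forkhead genes were also called between the PDGFRA populations and endothelium, where 60.5% of all tested bulk genes were called in either direction. In bulk Foxp1, a repressor used in many tissues, was at 76.2 and 68.7 CPM in telocytes and 111 and 99.9 CPM in PDGFRAlo cells, against 239 and 313 CPM in CD31+LYVE1- cells and 171 and 161 CPM in CD31+LYVE1+ cells. The log2 fold change of PDGFRA populations over endothelium was -1.29 (SE 0.22, edgeR adjusted p = 0.000901). Foxp1 was highest in B cells at 839 and 786 CPM, a cell type whose 8 marker genes were all called lower in the bulk PDGFRA populations than in the endothelial sorts. The part of B cells in the bulk Foxp1 difference was not tested. In gated cells Foxp1 was at 135 and 135 CPM in pooled telocyte and fibroblast gates, against 420 and 403 CPM in pooled endothelium (log2 fold change -1.49, SE 0.07). Foxp4, its close relative, was at 35.1 and 34.9 CPM in telocytes and 23.9 and 17.2 CPM in PDGFRAlo cells, against 1.28 and 4.61 CPM in CD31+LYVE1- cells and 3.64 and 2.82 CPM in CD31+LYVE1+ cells. Its bulk log2 fold change was 3.13 (SE 0.41) and its pooled single-cell value 0.54 (SE 0.22, edgeR adjusted p = 0.0349). With the gates kept apart Foxp4 was not called (0.39, SE 0.25, edgeR adjusted p = 0.201).

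Foxj2, Foxj3 and Foxk2, which are expressed in most tissues, were higher in the bulk PDGFRA populations than in endothelium. Their bulk log2 fold changes were 1.13 (SE 0.20), 1.24 (SE 0.28) and 1.65 (SE 0.29). Foxj2 was at 74.8 and 67.3 CPM in telocytes and 53.9 and 59.2 CPM in PDGFRAlo cells, against 33.7 and 44.2 CPM in CD31+LYVE1- cells and 20.9 and 21.8 CPM in CD31+LYVE1+ cells. In gated cells Foxj2 ran the other way (log2 fold change -0.71, SE 0.20, edgeR adjusted p = 0.00289). It was at 20.4 and 19.1 CPM in pooled telocyte and fibroblast gates and 30.6 and 40.0 CPM in pooled endothelium. The library kit and the cell mix differ between the data sets. Strain changes with the groups in bulk and is not given for the whole-mesenchyme libraries. The part of kit, cell mix and strain in this difference was not tested. Foxj3 was at 31.4 and 34.3 CPM in telocytes and 27.8 and 37.3 CPM in PDGFRAlo cells, against 24.1 and 11.7 CPM in CD31+LYVE1- cells and 11.7 and 9.61 CPM in CD31+LYVE1+ cells. Foxk2 was at 32.3 and 44.9 CPM in telocytes and 24.9 and 37.9 CPM in PDGFRAlo cells, against 12.3 and 21.6 CPM in CD31+LYVE1- cells and 6.21 and 8.20 CPM in CD31+LYVE1+ cells. In pooled gates neither passed the test, with log2 fold changes of -0.10 for Foxj3 (SE 0.19, edgeR adjusted p = 0.697) and 0.24 for Foxk2 (SE 0.24, edgeR adjusted p = 0.440).

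The remaining bulk calls between the PDGFRA populations and endothelium were Foxl1 (log2 fold change 6.59, SE 1.08), Foxq1 (3.24, SE 0.80), Foxs1 (1.38, SE 0.49) and Foxo4 (-2.57, SE 0.52). The call of Foxs1 (edgeR adjusted p = 0.0361) was lost without telocyte replicate 1 (0.0648) or 2 (0.112), PDGFRAlo replicate 2 (0.0875), CD31+LYVE1- replicate 1 (0.0787) or CD31+LYVE1+ replicate 2 (0.112). In pooled gates Foxs1 was instead lower (log2 fold change -2.09, SE 0.79, edgeR adjusted p = 0.0254). It had 12 and 2 UMIs in the telocyte and fibroblast gates against 3 and 6 UMIs in endothelium. With the gates kept apart it was not called (-2.23, SE 1.66, edgeR adjusted p = 0.294). Foxo4, a FOXO gene, was at 0.713 and 0.363 CPM in telocytes and 0.924 and 0.508 CPM in PDGFRAlo cells, against 4.23 and 7.49 CPM in CD31+LYVE1- cells and 2.56 and 2.08 CPM in CD31+LYVE1+ cells. Foxk1 was the last member called in bulk, at 20.1 and 16.2 CPM in CD31+LYVE1- cells and 7.96 and 5.58 CPM in CD31+LYVE1+ cells (log2 fold change 1.43, SE 0.45, edgeR adjusted p = 0.0477). That call was lost when telocyte replicate 1 or 2, CD31+LYVE1- replicate 1 or 2 or CD31+LYVE1+ replicate 1 or 2 was left out (edgeR adjusted p of 0.0672 to 0.216).

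The telocyte and both fibroblast gates were compared with both endothelial gates of the whole-mesenchyme libraries. There, 4 forkhead genes were higher (25% of all genes were) and 7 lower (21.2% of all genes, and 46.1% in either direction). Foxf1, Foxf2, Foxo3 and Foxp2 were higher, and Foxc1, Foxc2, Foxj2, Foxn2, Foxo1, Foxo4 and Foxp1 were lower. With gates pooled, Foxf1 had 114 and 117 CPM in telocyte and fibroblast gates, against 45.1 and 31.3 CPM in endothelium (log2 fold change 1.71, SE 0.15). Foxf2 had 1008 UMIs against 3, a ratio of 44.8 with an exact counting interval of 15.3 to 218. Foxl1 had 109 UMIs against 1, a ratio of 14.5 (exact counting interval 2.55 to 579). Foxo1 was lower at 70.7 and 66.7 CPM, against 144 and 151 CPM in endothelium (log2 fold change -0.99, SE 0.11), and Foxo3 was higher at 74.2 and 71.6 CPM, against 25.8 and 21.8 CPM in endothelium (1.73, SE 0.18). Foxn2 was lower at 18.1 and 16.7 CPM, against 42.7 and 48.7 CPM in endothelium (-1.27, SE 0.18). Foxo4 was not called with gates pooled (log2 fold change -0.38, edgeR adjusted p = 0.269), and Foxn3 was called higher only with gates pooled (0.29, SE 0.08), where the gates kept apart gave -0.10 (SE 0.09). In blood over lymphatic endothelium, 1 forkhead gene was higher (14.7% of all genes were) and 2 lower (11.2% of all genes): Foxf1, and Foxp2 and Foxj2 (log2 fold change -0.92, SE 0.34, edgeR adjusted p = 0.0407).

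**Figure D3:**
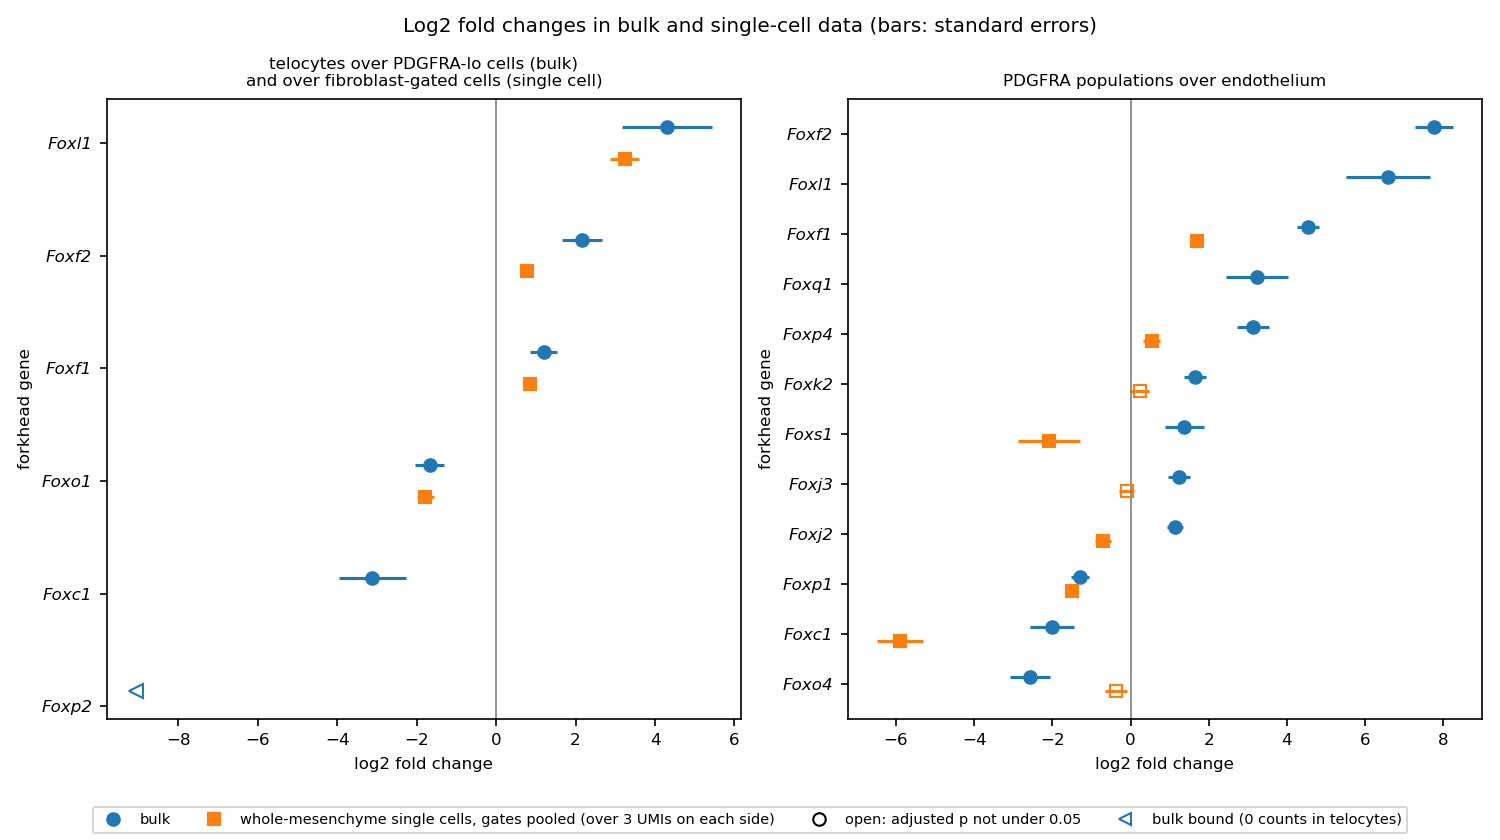
Log2 fold changes (x axis) of the forkhead genes called in bulk, in telocytes over PDGFRAlo or fibroblast-gated cells (left) and in PDGFRA populations over endothelium (right), with circles for bulk, squares for pooled single-cell gates with over 3 UMIs on each side, bars for standard errors and open symbols for an adjusted p not under 0.05. On the right, Foxj2 and Foxs1 were called in opposite directions in the 2 data sets and Foxj3 had a fold change near 0 in single cells, while Foxf1, Foxp1 and Foxc1 had the same called direction in both; the triangle is the bound for Foxp2.

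The sorted EGFP-positive library, with no replicate and so no test, gave levels in 939 telocyte-gated cells, 333 Cd81 fibroblasts and 2123 lamina propria fibroblasts. Intervals are exact 95% Poisson intervals and cover counting error only. Foxl1 was at 26.9 CPM (22.4 to 32.1) in telocyte-gated cells, against 0 CPM in Cd81 fibroblasts and 1.59 CPM (0.910 to 2.58) in lamina propria fibroblasts. Foxf1 was at 269 CPM (255 to 285) in telocyte-gated cells, against 78.7 CPM (65.7 to 93.6) and 108 CPM (102 to 115) in the same fibroblast gates. Foxf2 was at 163 CPM (152 to 175), against 6.10 CPM (2.93 to 11.2) and 54.4 CPM (49.9 to 59.2). Foxp2 was at 0.427 CPM from 2 UMIs in telocyte-gated cells, 87.9 CPM (74.1 to 103) in Cd81 fibroblasts and 31.9 CPM (28.5 to 35.6) in lamina propria fibroblasts. Foxo1 was at 17.7 CPM (14.1 to 22.0), against 67.2 CPM (55.2 to 80.9) and 39.5 CPM (35.7 to 43.6), and Foxs1 at 8.76 CPM (6.29 to 11.9), against 0 and 0.298 CPM. Low-UMI droplets of this library held 3.18 CPM of Foxl1, 92.3 CPM of Foxf1, 40.3 CPM of Foxf2 and 14.8 CPM of Foxp2.

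Most telocyte-gated cells held no Foxl1 UMI. The share with one was 11.5% of 939 cells in the sorted library (exact binomial interval 9.53% to 13.7%), against 0% of Cd81 fibroblasts and 0.612% of lamina propria fibroblasts. With each cell of 2000 or more UMIs thinned to 2000, the shares among these cells were 4.08%, 0% and 0.368%. This left out 32 telocyte-gated cells, 23 Cd81 fibroblasts and 223 lamina propria fibroblasts with fewer UMIs. Median depths were 4815 UMIs in telocyte-gated cells, 5070 in Cd81 fibroblasts and 4916 in lamina propria fibroblasts. In the whole-mesenchyme libraries the shares were 14.4% of 111 and 28.4% of 109 telocyte-gated cells (exact binomial intervals 8.47% to 22.4% and 20.2% to 37.9%), and 5.56% and 12.8% after the same thinning. A cell without a Foxl1 UMI was therefore not shown to lack the transcript at this depth. Foxf1 UMIs were in 70.0% of the telocyte-gated cells of the sorted library.

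**Figure D4:**
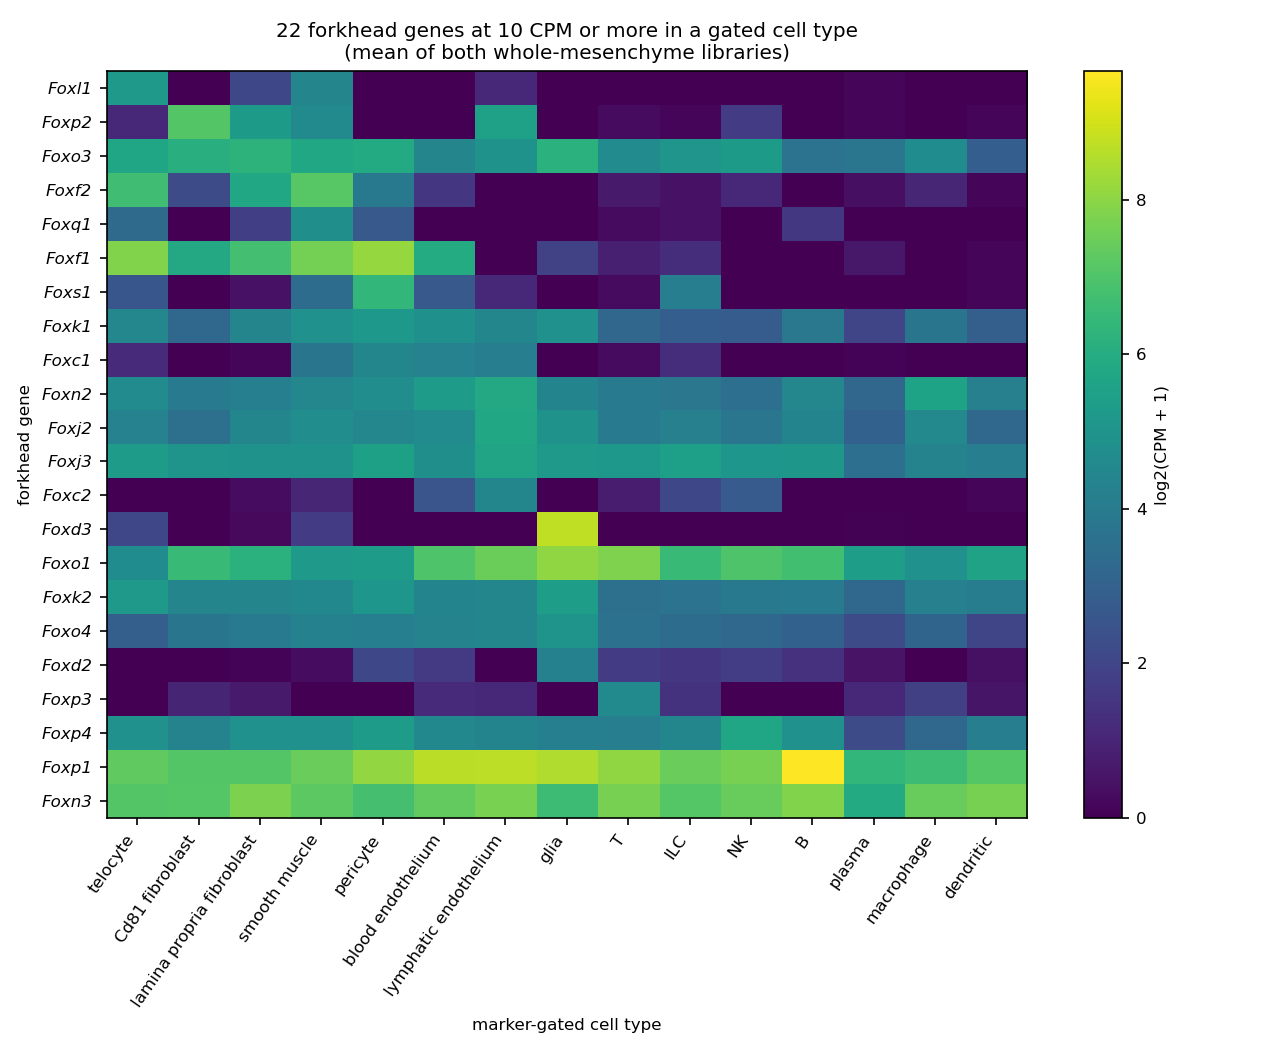
Colour gives log2(CPM + 1), the mean of both whole-mesenchyme libraries, for the 22 forkhead genes (rows) that reached 10 CPM in at least 1 of 15 gated cell types (columns). Foxl1, Foxp2, Foxs1, Foxc2 and Foxd3 had their high levels in few cell types, while Foxn3, Foxp1, Foxo1 and Foxj3 were found in all.

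The other members were widespread or rare. Foxj2, Foxj3, Foxk1, Foxk2, Foxn2, Foxn3, Foxo1, Foxo3, Foxo4, Foxp1 and Foxp4 had UMIs in all 15 gates. Foxp3, the regulator of regulatory T cells, had 73.5% of its UMIs in T cells, at 21.8 and 24.1 CPM. Foxm1, which drives mitotic genes, had 343 UMIs in 14 gates, and its bulk level was at most 2.97 CPM. Foxj1, a gene of ciliated cells, had 87 UMIs in 10 gates. Foxb1, Foxb2, Foxd4, Foxe3, Foxi1, Foxi2, Foxl2, Foxn1 and Foxr2 were among the genes with 0 bulk counts.

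Partner genes were counted from lists chosen by textbook role. Of 14 hedgehog pathway genes, 12 were tested in bulk, and 0 were called higher and 5 lower in telocytes over PDGFRAlo cells, where 2.77% and 12.1% of all genes were called in those directions (median log2 fold change -1.10, against -0.03 over all genes). Among the 5 were Boc (-2.03, SE 0.34), Gas1 (-5.19, SE 0.52), Hhip (-4.47, SE 1.16) and Dhh (-5.53, SE 1.12). Boc and Gas1 are coreceptors, Hhip binds the ligand, and Dhh is a ligand. Of 8 smooth muscle markers 1 was higher and 4 lower in the same telocytes, all 8 blood endothelial markers were lower, and of 8 lamina propria fibroblast markers 5 were lower. The smooth muscle list summed to 1401 and 988 CPM in telocytes, against 690 and 397 CPM in PDGFRAlo cells, and Hhip was at 2061 to 3954 CPM in smooth muscle cells, as given above. The part of these cells in the hedgehog counts was not tested. In telocyte-gated cells over fibroblasts 1 was higher (12% of all genes were) and 6 lower (13.7% of all genes) of 12: Ptch1, the main receptor, was higher by 0.86 (SE 0.13), and Boc, Gas1, Gli1, Gli3 and Hhip were among the lower ones. In the bulk PDGFRA populations over endothelium 10 of 12 were higher and 1 lower, against 28.8% and 31.7% of all genes (median 3.84, against -0.07 over all genes). The forkhead genes Foxf1, Foxf2 and Foxl1 were higher in bulk telocytes over PDGFRAlo cells, as given above. Their link to the hedgehog genes was not tested, and counts over this list do not measure pathway activity.

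Of 20 FOXO regulators and targets, 1 was higher and 2 lower in bulk telocytes over PDGFRAlo cells, a share near the 14.9% of all genes called in either direction. The lower ones were Cdkn1a, a cell cycle inhibitor (log2 fold change -2.99, SE 0.78), and Klf2, a zinc finger factor (-2.23, SE 0.55). The higher one is not named here. In telocyte-gated cells over fibroblasts 5 were higher and 7 lower, where 25.7% of all genes were called in either direction. Klf2 was at -2.10 (SE 0.14) and Cdkn1a at -0.82 (SE 0.15). These 2 genes do not stand for the list, whose called members went in both directions. Of 12 lymphatic valve and FOXC partners, 5 were higher (14.7% of all genes were) and 1 lower (8.32% of all genes) in CD31+LYVE1- over CD31+LYVE1+ cells. The lower one was Prox1, the lymphatic master regulator (-4.60, SE 0.74), and the 5 higher ones are not named here. In blood over lymphatic gates 4 were higher (14.7% of all genes were) and 4 lower (11.2% of all genes). The lower ones were Prox1 (-5.12, SE 0.17), the receptor Flt4 (-4.50, SE 0.13), the integrin Itga9 (-3.13, SE 0.22) and Nfatc1 (-2.13, SE 0.23). The 4 higher ones are not named here. Of 12 FOXM1 and mitosis genes, 0 were called in bulk telocytes over PDGFRAlo cells. In the bulk PDGFRA populations over endothelium 1 of these 12 was higher (28.8% of all genes were) and 5 lower (31.7% of all genes). In telocyte-gated cells over fibroblasts 7 were tested, with 2 higher (12% of all genes were) and 0 lower (13.7% of all genes). Of 6 tested FOXP partners 0 were higher and 1 lower in bulk telocytes over PDGFRAlo cells. That gene was Cntnap2, a neurexin-family gene with 0 CPM in both telocyte libraries.

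Genes with the most similar profile over the 15 gates were ranked by Pearson correlation of log2(CPM + 1), means of both libraries, among 12498 genes. The gates share the same 2 libraries, and no p is given. For Foxl1 these were Col6a4 (0.976), Cacna2d3 (0.942) and Syt13 (0.942). For Foxf1 they were Frk (0.980), Sparcl1 (0.975) and Runx1t1 (0.975), and for Foxp2 Osr1 (0.957), Prrx2 (0.902) and 1810010H24Rik (0.894). For Foxc2 they were Adgrg3 (0.915), Arl4a (0.865) and Mtmr12 (0.858). Among the forkhead genes the closest pairs were Foxf2 with Foxq1 (0.867), Foxf1 with Foxf2 (0.862) and Foxf2 with Foxl1 (0.852).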

How the data were processed

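Bulk read counts per gene symbol and droplet UMI counts per gene and barcode were used as the authors deposited them. Per the submitters' processing notes, STAR, mm10, Seurat and Cell Ranger (2.1.1 and 3.0.2) were used. The whole-mesenchyme labels repeat the sorting protocol of the reporter cells, although their cells include endothelium, glia and immune cells. From the counts, 26 bulk rows whose names had become dates were dropped (0.131% to 0.523% of counts). Bulk groups were compared with edgeR 4.0.16 (quasi-likelihood test, TMM scaling, filterByExpr, 4 group means, Benjamini-Hochberg adjustment) in R 4.3.3, with DESeq2 1.42.0 as an alternative. Cells needed 500 genes and at most 10% mitochondrial UMIs. Doublets scoring above 0.25 in Scrublet (scanpy 1.11.5) were removed (46, 98 and 113), and cells were gated on marker lists with a score of at least 0.2 and a lead of 0.05. UMI sums per gate and library were tested with edgeR, with library as a block. Same-numbered bulk replicates were not treated as pairs, since their deviations correlated at 0.195 or less. Values per library are given for Foxl1, Foxf1, Foxf2, Foxp2, the FoxC and FoxD genes and members called in a comparison, and the 3 genes most like 4 of them were ranked among genes with 10 CPM or more in a cell type. Some genes are not reported here. The members and lists were chosen with earlier results of these data known. Scripts were tested on simulated data. Counting intervals and floors of 3 counts cover counting error only.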

Additional observations from a re-analysis of the deposited data

How the results depend on the processing

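No forkhead gene called in a comparison changed direction there in the alternatives run. Of 615 alternative values, 506 kept their call or lay within the replicate spread, 60 lost and 4 gained a call, and 45 moved. Leaving out 1 bulk library gave 1 to 5 members called in telocytes over PDGFRAlo cells (6 with all libraries), 10 to 13 in the PDGFRA populations over endothelium (12) and 2 to 4 in CD31+LYVE1- over CD31+LYVE1+ cells (4). With the replicate number as a block, the counts were 5, 11 and 4. The block ended the bulk calls of Foxf1 in telocytes over PDGFRAlo cells (edgeR adjusted p = 0.0536), Foxs1 in the PDGFRA populations (0.0523) and Foxc2 in CD31+LYVE1- cells (0.0669). DESeq2 did not call Foxl1 in bulk telocytes (0.155) or in telocyte-gated cells (0.711). In single cells, Foxj2 in blood over lymphatic endothelium was lost with no filter (0.0620) or a stricter gate (0.104). Foxo4 in telocyte and fibroblast gates over endothelium was lost with gates pooled (0.269), and Foxc2 in blood endothelium was called without the library block (0.0496). Averages of logs are undefined for gates at 0 UMIs, so the pooled gates were added after seeing the data, as were the GC and TATA box searches. Leaving out 1 whole-mesenchyme library gave values with no test. Members under 10 UMIs could not be ranked at this depth.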

Other observations

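The innate lymphoid cell gate held 63 and 67 Foxs1 UMIs, described here by Ccr6, a chemokine receptor, and Ncr1, a natural cytotoxicity receptor, a split chosen after seeing the values. Of the cells with a Foxs1 UMI, 48.1% and 34.7% held a Ccr6 UMI, against 8.09% and 8.60% of those without one. Cells with a Ccr6 UMI and no Ncr1 UMI held 30 Foxs1 UMIs in 101 cells (81.8 CPM) of the first whole-mesenchyme library and 22 in 97 cells (60.8 CPM) of the second. Cells with an Ncr1 UMI and no Ccr6 UMI held 1 Foxs1 UMI in 249 cells (0.978 CPM) and 1 in 244 cells (0.990 CPM). The other Foxs1 UMIs, more than these in number, lay in cells with neither or both receptors. Median depths were 3219 and 3441 UMIs in the Ccr6 cells and 3880 and 3919 UMIs in the Ncr1 cells. Foxa1, a gene of endoderm, had 38 UMIs in the gates, 68.4% of them in innate lymphoid cells. Foxr1 had 45 UMIs, 84.4% of them in dendritic cells at 4.86 and 3.70 CPM.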
